A study of Mus musculus with 18 samples.

Results

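The loss of Max after doxycycline (Dox) was examined in mouse Max-null embryonic stem cells (ESCs) on 3 arrays of 18 in the series, namely 1 untreated array, 1 at day 4 of Dox and 1 at day 6. These were the samples whose titles name Max-null ESCs without p110 alpha. The series put Myc and PI3K signalling side by side in the self-renewal of ESCs and measured RNA on Affymetrix arrays. All lines derive from EBRTcH3 ESCs, which are male and of 129SV background, and those used here grew in serum with LIF. The Max-null line is a derivative in which Dox ablates Max expression, per the series design. How that is done, and whether the line is 1 clone, is not given in the sources used here. A second line, Max-null ESCs that also overexpress p110 alpha, the catalytic subunit of PI3K, gave 1 array with Dox, whose number of days is not given, and 1 array without. The 9 further arrays of the fit came from EBRTcH3 ESCs and their derivatives overexpressing wild-type c-Myc or c-Myc T58A, each untreated and at day 2 and day 5 of LY294002, a PI3K inhibitor. They entered only as a measure of spread and as untreated lines to compare levels with.

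Max is a basic helix-loop-helix protein that binds DNA only as a dimer. With Myc, Mycn or Mycl it forms activators of growth genes, with the Mxd proteins and Mnt it forms repressors, and with Mga it belongs to PRC1.6, a Polycomb complex that keeps germ cell genes silent in ESCs. Most of these dimers read the E-box CACGTG.

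Every value below is a log2 RNA level of 1 array, and every change is a difference of such levels, so a change of 1 is 2-fold. No replicate of a condition exists among the 3 arrays. The test, limma with 5 residual degrees of freedom over 14 arrays, set the mean of both Dox days against the lone untreated array and assumed that this array varies like the others. A gene was called when its p-value, adjusted over all 13903 genes tested, was under 0.05 and both days went the same way. The ± values are standard errors of that fit.

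The probe set for Max itself did not follow Dox. Max read 7.09 in the untreated array, 6.89 at day 4 and 7.18 at day 6, and 6.33 with Dox and 6.70 without in p110 alpha Max-null ESCs, against 8.17 to 8.71 in the 13 arrays of the other lines. The change was -0.05 ± 0.20, adjusted p = 0.841. Max has 1 probe set, and whether it covers the ablated transcript is not stated, so it checks neither the labels nor the ablation. The probe set taken for Pik3ca, the gene of p110 alpha, read 8.27 with Dox and 8.82 without in p110 alpha Max-null ESCs. It read 8.50 in untreated Max-null ESCs and 6.59 to 8.86 in the 13 arrays of the other lines. It thus showed no overexpression, and whether it covers the overexpressed transcript is not stated.

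Signs of RNA quality and of scale moved with Dox. The signal of the actin control probes at the 3′ end over those at the 5′ end was 0.88 (log2) in the untreated array, 1.10 at day 4 and 1.16 at day 6, against 0.75 to 1.02 in all other arrays. The spread of all probe sets was narrower at day 6, with an SD of 2.36, than in any other array (2.48 to 2.57). Genes that began between 4 and 6 had a median change of 0.16 at day 4 and 0.42 at day 6, and genes that began between 10 and 12 one of -0.26 and -0.50. The part of these in the results was not tested.

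Much of the transcriptome differed from the untreated array in the same direction on both Dox days. Both changes subtract that 1 array, so a deviation of it moves both days the same way. Of 13903 genes, 1986 rose (14.3%) and 3630 fell (26.1%), 40.4% in all. Among these, 578 rose (4.16%) and 992 fell (7.14%) by at least 2-fold on both days, and no gene of the 13903 moved 2-fold in opposite directions. The rises reached further than the falls: 50 genes rose and 0 fell by at least 16-fold on both days. To be tested, a gene had to exceed 4.64 on at least 2 of 14 arrays, which the 2 Dox arrays alone could meet. Of the 578 genes, 136 were below 4.64 in the untreated array, as were 19 of the 50 largest rises. A gene that low has little room to fall. The change was larger at day 6 than at day 4 for 433 of the 578 genes that rose and for 785 of the 992 that fell. Both Dox arrays lay above all 4 other untreated lines for 571 of the 578, against 25.3% of all genes. They lay below them for 837 of the 992, against 31.1% of all genes. The 578 and the 992 were chosen by their change with Dox, so these counts are no independent result. Most of the 5616 calls rest on the spread borrowed from other lines. With only the 5 arrays of the Max-null lines, 1258 genes were called, 489 of the 578 and 763 of the 992 among those that passed, and without the wild-type c-Myc line 3548 were called. Just inside the 2-fold limit lay Tgfbr1, with changes of 1.03 at day 4 and 1.00 at day 6, and Tma16, which fell by 1.51 at day 6 and by just over 1 at day 4. Just outside it lay Cplane1 and Ndufaf5, which missed 1 by less than 0.001 on 1 of the days.

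**Figure D1:**
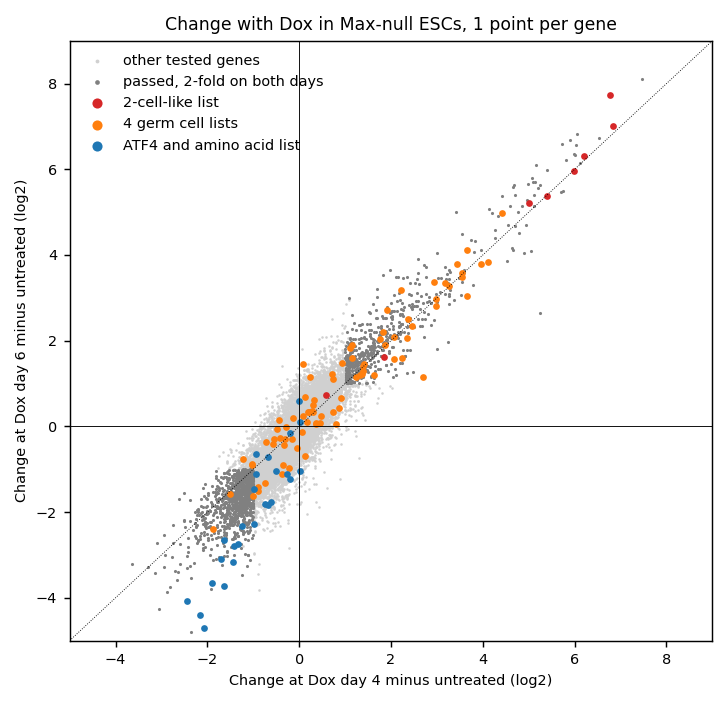
Change of each tested gene at Dox day 6 (vertical, log2) against day 4 (horizontal, log2) in Max-null ESCs, 1 point per gene, with 2-cell-like, germ cell and ATF4 list members coloured and the dotted line marking equal change. Genes of the 2-cell-like list reach the upper right, with 6 of the 8 tested at changes of about 5 or more, and 15 of the 16 ATF4 list genes that fell lie below the line, lower at day 6 than at day 4.

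Genes of the 2-cell-like state were among the largest rises. This is the rare and transient state of ESC cultures in which genes of the 2-cell embryo are on. All 8 tested genes of that list rose, against 14.3% of all genes, 7 of them by at least 2-fold on both days. The median change was 5.69 at day 4 and 5.67 at day 6, against -0.08 and -0.10 over all genes. Of 17 list entries, 9 were on the array and 8 passed the level filter. High Dox arrays alone could meet that filter, so a gene could be tested because it rose. Tcstv1 and Pramel6 were below 4.64 in the untreated array and in the other untreated lines. Tcstv1, of a transcript family of the 2-cell embryo, read 4.11 in the untreated array, 10.94 at day 4 and 11.13 at day 6 (6.92 ± 0.14, adjusted p = 6.26e-08). Zfp352, a zinc finger gene of the 2-cell stage, read 6.81 in the untreated array, 13.02 at day 4 and 13.12 at day 6 (6.26 ± 0.21, adjusted p = 6.12e-07). For both genes the 2 Dox arrays lay far above every untreated array.

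Sp110, which encodes a nuclear body protein, read 6.46 in the untreated array, 12.45 at day 4 and 12.41 at day 6 (5.97 ± 0.20, adjusted p = 6.12e-07). Arg2, the mitochondrial arginase, read 5.54 in the untreated array, 10.94 at day 4 and 10.93 at day 6 (5.39 ± 0.19, adjusted p = 6.12e-07). Both genes were about as high at day 4 as at day 6. The naming by small p favours such genes, since the difference between the days is part of the spread. Of the 8 list genes, 5 had the larger change at day 6. Pramel6, of the PRAME-like family, was at 3.51, 5.37 and 5.12 in the same order (1.73 ± 0.16, adjusted p = 0.00014). Eif1ad rose by the least, 0.66 ± 0.15 (adjusted p = 0.00772), and read -0.03 when all its probe sets were averaged. Both were named after their values were seen.

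The summed linear level of the 9 list genes on the array was 1759.6 in untreated Max-null ESCs, 33559.8 at day 4 and 37849.9 at day 6. In p110 alpha Max-null ESCs it was 2857 with Dox and 1903 without, and it was 551 to 1465 in the other 13 arrays. The untreated arrays of both Max-null lines thus stood above all arrays of the other lines. On bulk arrays, more (or fewer) cells of a type and more (or less) RNA per cell cannot be told apart.

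The 12 largest rises were Pramel18, Tcstv3, Tcstv1, Gm7969, D13Ertd608e, LOC664787, AF067063, Zfp352, BC147527, BC080696, Gm11544 and Spz1, all at changes of 6.13 or more. Pramel18, a PRAME-like gene, had the largest, with 4.08 in the untreated array, 11.56 at day 4 and 12.19 at day 6 (7.79 ± 0.28, adjusted p = 6.33e-07). Spz1, a basic helix-loop-helix gene of the testis, read 3.58 in the untreated array, 9.69 at day 4 and 9.72 at day 6 (6.13 ± 0.14, adjusted p = 8.81e-08). Several of the 12, such as the Tcstv and PRAME-like genes, have close copies that can share probes, so which copy gave the signal is uncertain. All 12 were called in the 5 arrays of the Max-null lines too.

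Germ cell genes formed the next group. Over the 4 germ cell lists together, 39 of 83 tested genes rose and 12 fell, against 14.3% and 26.1% of all genes, and 35 of the 39 rose by at least 2-fold on both days. The median change was 0.72 at day 4 and 0.67 at day 6. The untreated Max-null array was already above the 4 other untreated lines in the median level of each list, at 7.50 against 5.28 to 6.01 for the meiotic axis, 7.06 against 6.06 to 6.56 for meiotic entry, 7.27 against 5.64 to 6.22 for the piRNA pathway and 7.40 against 5.73 to 6.41 for germline regulators.

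In the E-box search, 14 of the 29 germ cell genes that rose 2-fold and had a promoter in the RefSeq table (GRCm38.p6, 250 bases before to 50 after the start) held CACGTG, which reads the same on both strands. That is 48.3%, against 10 of 42 (23.8%) for the other tested genes of these lists, 64 of 461 (13.9%) for all genes 2-fold higher and 1280 of 11172 (11.5%) for all tested genes. Of 32851 promoters in the table, 7.15% held it. It was in 0 of 5 promoters of 2-cell-like genes that rose. Among genes that fell, 1 of 21 in ribosome biogenesis (4.76%) and 3 of 15 in the ATF4 list (20.0%) held it. The E2F-like motif GCGGGA, searched on both strands, was in 12 of the 29 (41.4%), in 38.1% of the promoters of tested genes and in 20.0% of all promoters. A match describes these letters only. Of the 15 germ cell genes named below that rose, 14 had a promoter in the table and 5 of them held the E-box at 1 start or more, shown here because Max dimers read it. The E-box is in capitals.
Sycp1, chr3:102936051-102936350, minus strand: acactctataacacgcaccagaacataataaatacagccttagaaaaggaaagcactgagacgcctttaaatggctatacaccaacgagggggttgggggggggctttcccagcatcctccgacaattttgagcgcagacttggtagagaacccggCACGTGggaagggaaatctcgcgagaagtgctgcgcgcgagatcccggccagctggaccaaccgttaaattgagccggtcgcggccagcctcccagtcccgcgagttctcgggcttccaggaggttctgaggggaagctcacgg
Tdrd9, chr12:111971309-111971608, plus strand: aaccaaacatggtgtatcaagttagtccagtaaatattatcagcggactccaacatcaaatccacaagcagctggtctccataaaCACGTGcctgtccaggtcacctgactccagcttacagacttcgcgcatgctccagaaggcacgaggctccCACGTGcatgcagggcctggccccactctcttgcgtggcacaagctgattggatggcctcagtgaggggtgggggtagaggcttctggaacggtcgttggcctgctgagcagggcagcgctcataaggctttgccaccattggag
Mov10l1, chr15:88982744-88983043, plus strand: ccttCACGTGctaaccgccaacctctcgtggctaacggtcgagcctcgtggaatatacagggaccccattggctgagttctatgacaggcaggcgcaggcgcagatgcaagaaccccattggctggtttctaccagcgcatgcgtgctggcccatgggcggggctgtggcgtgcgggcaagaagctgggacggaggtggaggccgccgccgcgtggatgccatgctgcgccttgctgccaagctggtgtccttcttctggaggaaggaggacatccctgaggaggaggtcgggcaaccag
Nxf2, chrX:134964705-134965004, minus strand: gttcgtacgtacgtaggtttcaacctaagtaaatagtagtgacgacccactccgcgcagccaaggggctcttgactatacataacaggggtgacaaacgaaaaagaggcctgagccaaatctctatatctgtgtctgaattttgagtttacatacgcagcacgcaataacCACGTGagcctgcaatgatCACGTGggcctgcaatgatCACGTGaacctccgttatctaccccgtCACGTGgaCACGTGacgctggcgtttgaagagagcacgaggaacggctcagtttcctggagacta
Slc25a31, chr3:40708621-40708920, plus strand: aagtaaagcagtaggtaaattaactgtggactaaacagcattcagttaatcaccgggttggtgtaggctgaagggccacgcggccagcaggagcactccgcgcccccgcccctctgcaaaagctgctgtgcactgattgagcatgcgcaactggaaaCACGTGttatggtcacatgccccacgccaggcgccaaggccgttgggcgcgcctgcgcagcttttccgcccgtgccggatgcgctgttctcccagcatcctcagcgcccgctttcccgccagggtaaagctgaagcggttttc

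Genes of the meiotic chromosome axis and the synaptonemal complex, which pairs chromosomes in meiosis, had the highest share of genes that rose among the 4 germ cell lists. Of 17 tested, 13 rose and 1 fell, with median changes of 1.33 and 1.42 on days 4 and 6. Sycp1, the transverse filament of the complex, read 6.22 in the untreated array, 10.34 at day 4 and 10.06 at day 6 (3.97 ± 0.21, adjusted p = 6.57e-06). Sycp2, of its lateral element, read 6.70 in the untreated array, 9.69 at day 4 and 9.50 at day 6 (2.90 ± 0.27, adjusted p = 0.000164). The Sycp1 promoter above has 1 E-box, and that of Sycp2 has none in this window. The change was larger at day 6 than at day 4 for 6 of the 13 genes that rose. Syce1 and Syce3, of its central element, changed by 1.88 ± 0.15 (adjusted p = 6.59e-05) and 1.90 ± 0.16 (adjusted p = 9.34e-05). All 4 were higher in both Dox arrays than in any other untreated line.

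Meiotic entry and recombination genes went both ways. Of 18 tested, 5 rose and 5 fell, against 14.3% and 26.1% of all genes, so the share that fell was near that of all genes. The median change was 0.07 at day 4 and 0.04 at day 6. Stra8, the gatekeeper of meiotic entry, read 9.43 in the untreated array, 12.37 at day 4 and 12.79 at day 6 (3.15 ± 0.24, adjusted p = 4.72e-05). Mei1, needed for early meiotic recombination, read 4.84 in the untreated array, 7.82 at day 4 and 7.82 at day 6 (2.97 ± 0.16, adjusted p = 7.15e-06). Meioc, which keeps the meiotic programme going in germ cells, changed by 2.43 ± 0.21, adjusted p = 0.000108. Mlh3, a mismatch repair protein that works at crossovers, fell to 7.25 at day 4 and 7.18 at day 6, against 8.76 in the untreated array (-1.54 ± 0.15, adjusted p = 0.000177). Without any 1 of the 3 lines that only gave spread, 3 genes fell and not 5.

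In the piRNA pathway, which silences transposons in germ cells, 9 of 20 tested genes rose and 1 fell. The median change was 0.73 and 0.74 on the 2 days. Tdrd9, a Tudor domain helicase, read 5.91 in the untreated array, 9.87 at day 4 and 9.70 at day 6 (3.88 ± 0.15, adjusted p = 8.64e-07). Mov10l1, a helicase that binds piRNA precursors, read 7.35 in the untreated array, 10.90 at day 4 and 10.83 at day 6 (3.51 ± 0.16, adjusted p = 2.42e-06). Their promoters are among those printed above, with 2 E-boxes in Tdrd9 and 1 in Mov10l1. Tex101, a surface protein of germ cells, read 4.85 in the untreated array, 9.26 at day 4 and 9.82 at day 6 (4.69 ± 0.24, adjusted p = 4.26e-06). Tex15, needed for piRNA-directed methylation, changed by 3.56 ± 0.28, adjusted p = 6.11e-05.

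Among germline regulators and testis genes, 12 of 28 tested rose and 5 fell, with median changes of 0.41 and 0.56. Dazl, an RNA-binding protein that germ cells need, read 9.23 in the untreated array, 12.40 at day 4 and 12.57 at day 6 (3.26 ± 0.17, adjusted p = 4.88e-06). Slc25a31, the testis form of the ADP/ATP carrier, read 7.48 in the untreated array, 10.73 at day 4 and 10.75 at day 6 (3.27 ± 0.18, adjusted p = 7.71e-06). Nxf2, an X-linked RNA export factor of the testis, read 4.53 in the untreated array, 8.19 at day 4 and 8.64 at day 6 (3.89 ± 0.21, adjusted p = 6.19e-06), and has 2 starts in the promoter table, 1 with the 5 E-boxes printed above and 1 with 0. Tsga8, a testis-specific gene, changed by 3.61 ± 0.16, adjusted p = 2.42e-06.

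**Figure D2:**
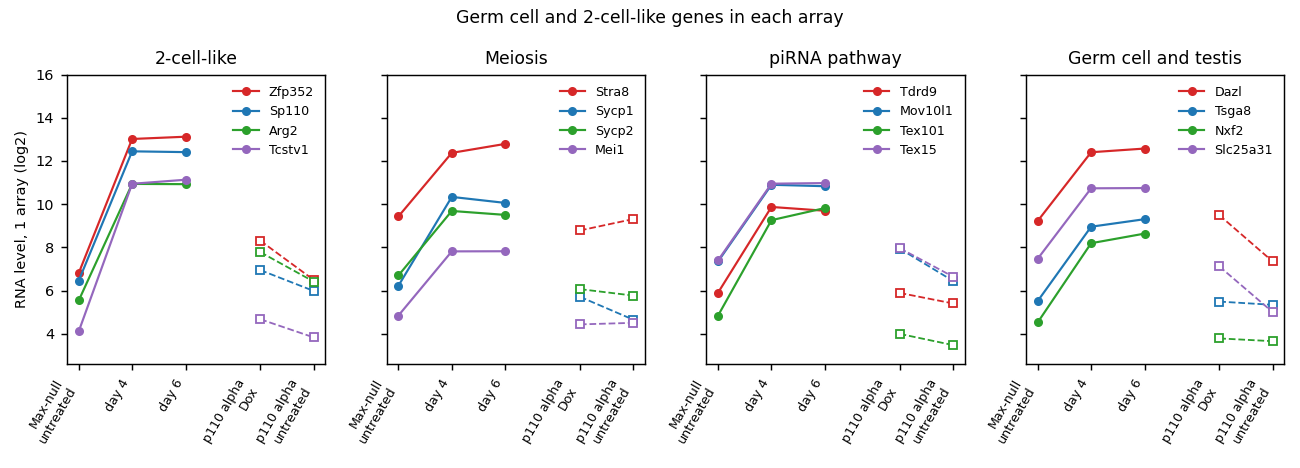
Log2 RNA level (vertical) of 4 genes per panel in each array, with filled points for the Max-null line (untreated, then day 4, then day 6) and open points for the p110 alpha Max-null line (Dox, then untreated). Lines join arrays of 1 line. The Max-null Dox arrays lie above their untreated array for all 16 genes, while the open points differ less.

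Genes of PRC1.6, the Polycomb complex in which Max pairs with Mga, fell or stayed uncalled. Of 14 tested, 0 rose and 7 fell, against 26.1% of all genes, and none by 2-fold on both days. Tfdp1, the dimer partner of E2f6, fell to 9.84 at day 4 and 9.28 at day 6, against 10.64 untreated (-1.08 ± 0.21, adjusted p = 0.00438). E2f6, a repressive E2F, and Pcgf6, the subunit that defines the complex, changed by -0.61 ± 0.15 (adjusted p = 0.0137) and -0.60 ± 0.15 (adjusted p = 0.0125). Ring1 and Rnf2, the ubiquitin ligases, Yaf2 and Cbx1 also fell, by 0.52 to 1.11. Mga, the partner of Max, read 10.80, 10.95 and 10.27 (-0.20 ± 0.25, adjusted p = 0.554), and L3mbtl2 8.60, 8.96 and 8.98 (0.37 ± 0.16, adjusted p = 0.0887). With quantile normalization 2 of the 14 rose and 5 fell. Without the wild-type c-Myc line 2 fell, and with the 5 arrays of the Max-null lines 0 did.

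In the Myc-Max-Mxd network, 2 of 16 genes rose and 5 fell, near the 14.3% and 26.1% of all genes. Mxd4, an Mxd repressor, read 5.12 in the untreated array, 6.69 at day 4 and 7.01 at day 6 (1.73 ± 0.18, adjusted p = 0.000286), and Mlxip, a glucose-sensing partner of Mlx, changed by 1.02 ± 0.13, adjusted p = 0.000585. Tfap4, a known Myc target, fell to 4.60 at day 4 and 4.53 at day 6, against 6.72 untreated (-2.15 ± 0.16, adjusted p = 3.64e-05), and Mxi1, another Mxd protein, by 1.25 ± 0.21 (adjusted p = 0.00209). Mlx, Usf2 and Mxd3 fell by 0.60 to 1.00. The 3 Myc genes were not called. Myc read 8.91, 9.64 and 9.43 (0.63 ± 0.27, adjusted p = 0.0905), Mycn 11.64, 12.47 and 11.96 (0.57 ± 0.49, adjusted p = 0.365) and Mycl 6.37, 6.75 and 7.19 (0.60 ± 0.28, adjusted p = 0.121), each in the order untreated, day 4 and day 6. Mnt, a repressive partner of Max, read 9.75, 9.49 and 8.78 (-0.62 ± 0.25, adjusted p = 0.0751). Without the day 4 array 4 genes of the network rose and 7 fell.

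Among growth genes that Myc is known to drive, the 4 lists differed. In ribosome biogenesis, 23 of 40 tested genes fell and 3 rose, against 26.1% and 14.3% of all genes, 3 of the 23 by at least 2-fold on both days, with median changes of -0.40 at day 4 and -0.60 at day 6. Wdr12, of the large-subunit assembly factors, fell to 8.91 and 8.66, against 10.15 untreated (-1.37 ± 0.15, adjusted p = 0.000306). Gar1, of the H/ACA snoRNPs that modify rRNA, changed by -1.18 ± 0.14, adjusted p = 0.000416. Ppan and Ddx21, further nucleolar factors, changed by -0.99 ± 0.14 (adjusted p = 0.000919) and -1.05 ± 0.16 (adjusted p = 0.00132). The count of 23 fell to 15 with quantile normalization, 14 without the wild-type c-Myc line and 1 with the 5 arrays of the Max-null lines. Of 13 ribosomal protein genes limma called 0, with 1 lower at an unadjusted p under 0.05 and median changes of -0.09 and -0.27. Without the day 4 array 4 of them fell.

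In the nucleotide and polyamine synthesis list, which also holds Sat1 and Smox of polyamine breakdown, 13 of 22 genes fell and 1 rose. The median changes were -0.53 and -0.68. Srm, spermidine synthase, fell to 9.79 at day 4 and 9.29 at day 6, against 11.31 untreated (-1.77 ± 0.21, adjusted p = 0.00047). Dhodh, of pyrimidine synthesis, changed by -1.80 ± 0.26, adjusted p = 0.0012, and Sat1, which acetylates polyamines, by -1.44 ± 0.22, adjusted p = 0.00137. Smox, spermine oxidase, was the 1 gene that rose (1.02 ± 0.16, adjusted p = 0.00172). Among translation factors and tRNA synthetases, 10 of 22 fell and 1 rose, with median changes of -0.25 and -0.74. Eef1e1 changed by -1.13 ± 0.15, adjusted p = 0.000717, Eif5a by -0.77 ± 0.13, adjusted p = 0.00263 and Vars by -0.67 ± 0.14, adjusted p = 0.00614, while Iars rose (0.80 ± 0.14, adjusted p = 0.00247). Without any 1 of the 3 lines that only gave spread, 6 of the 22 fell.

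Genes of the ATF4 response, which amino acid shortage and other stresses switch on, fell together and fell further at day 6. Of 26 tested genes, 16 fell and 0 rose, 11 of them by at least 2-fold on both days, and the median change was -0.97 at day 4 and -1.83 at day 6. For 15 of the 16, day 6 lay further from the untreated array than day 4. Chac1, which degrades glutathione, read 9.76 in the untreated array, 7.32 at day 4 and 5.69 at day 6 (-3.26 ± 0.64, adjusted p = 0.00457). Psat1 and Psph, of serine synthesis, read 12.20, 10.29 and 8.53 (-2.79 ± 0.56, adjusted p = 0.00496) and 10.67, 8.96 and 7.58 (-2.40 ± 0.46, adjusted p = 0.00413) in the same order. Slc7a1, a transporter of cationic amino acids, changed by -2.15 ± 0.43, adjusted p = 0.00505. All 16 genes were lower in both Dox arrays than in all 4 other untreated lines. The same held for 31.1% of all genes and 84.4% of the 992 that fell 2-fold. Over 13 alternatives with spread taken from other lines, 11 to 20 genes of the list fell and 0 rose.

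Nupr1, Trib3 and Chac1 were also among the 12 largest falls of all genes. Nupr1, a stress-induced nuclear protein, read 10.46 in the untreated array, 8.37 at day 4 and 5.76 at day 6 (-3.39 ± 1.08, adjusted p = 0.0352). It was not called without the day 6 array, without the wild-type c-Myc line or with 16 serum arrays. Trib3, a pseudokinase that ATF4 induces, read 9.73 in the untreated array, 7.57 at day 4 and 5.33 at day 6 (-3.28 ± 0.77, adjusted p = 0.0103). The ATF4 element TGATGNAA, searched on both strands, was in the promoters of 5 of 15 list genes that fell (33.3%) and of 7 of 23 list genes tested (30.4%), in 2.81% of the promoters of tested genes and in 3.97% of all promoters. The promoters of Chac1, Nupr1 and Trib3 are shown because each holds it, in capitals. All 3 matches read on the opposite strand.
Chac1, chr2:119350992-119351291, plus strand: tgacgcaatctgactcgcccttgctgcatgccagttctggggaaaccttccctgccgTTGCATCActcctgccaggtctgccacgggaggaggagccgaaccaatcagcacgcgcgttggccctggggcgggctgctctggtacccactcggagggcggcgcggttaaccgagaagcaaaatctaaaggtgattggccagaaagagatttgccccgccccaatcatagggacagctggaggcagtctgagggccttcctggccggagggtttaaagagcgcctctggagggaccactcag
Nupr1, chr7:126625421-126625720, minus strand: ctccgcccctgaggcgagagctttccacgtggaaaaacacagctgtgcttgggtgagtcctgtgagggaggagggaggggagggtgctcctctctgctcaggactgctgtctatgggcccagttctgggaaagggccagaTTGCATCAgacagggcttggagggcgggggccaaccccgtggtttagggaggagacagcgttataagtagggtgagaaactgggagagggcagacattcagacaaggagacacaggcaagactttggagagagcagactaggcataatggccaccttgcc
Trib3, chr2:152344011-152344310, minus strand: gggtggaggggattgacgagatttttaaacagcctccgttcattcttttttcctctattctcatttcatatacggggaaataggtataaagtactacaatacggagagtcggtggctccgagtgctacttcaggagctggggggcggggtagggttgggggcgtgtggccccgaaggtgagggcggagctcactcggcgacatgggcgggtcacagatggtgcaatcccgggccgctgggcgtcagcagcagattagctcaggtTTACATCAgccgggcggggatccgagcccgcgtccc

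Glycolysis genes also fell, but the untreated Max-null array stood apart for them. Of 17 tested genes, 9 fell and 0 rose, with a median change of -0.97 at day 4 and -0.98 at day 6. Aldoc, an aldolase, read 10.32 in the untreated array, 8.49 at day 4 and 8.45 at day 6 (-1.85 ± 0.20, adjusted p = 0.00029), and the 4 other untreated lines read 6.56 to 6.99. Pgk1, phosphoglycerate kinase, read 13.58 in the untreated array, 12.53 at day 4 and 12.51 at day 6 (-1.06 ± 0.16, adjusted p = 0.00162), and the other untreated lines 12.08 to 12.42. For both genes the Dox arrays, too, were above all 4 other untreated lines. For 9 of the 9 genes that fell, the untreated Max-null array was above those 4 lines. For 2 of the 9 both Dox arrays were below them. Over all genes these shares were 32.0% and 31.1%, and over the 992 that fell 2-fold 56.1% and 84.4%. Pdk1, a kinase that shuts pyruvate out of the TCA cycle, changed by -1.53 ± 0.23, adjusted p = 0.00153, and Aldoa by -1.16 ± 0.18, adjusted p = 0.00168. With 16 serum arrays 4 of the 17 genes fell, and with the 5 arrays of the Max-null lines 3 did.

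In the hypoxia response list 8 of 14 genes fell and 1 rose, with median changes of -0.99 and -0.95. The untreated Max-null array was above the other untreated lines for 7 of the 8 that fell, against 32.0% of all genes. Egln1 and Egln3, the oxygen sensors of the pathway, changed by -1.99 ± 0.20 (adjusted p = 0.000195) and -1.85 ± 0.25 (adjusted p = 0.000954), and Ero1a, an oxidase of protein folding, by -1.15 ± 0.17, adjusted p = 0.00117. P4ha2, a prolyl hydroxylase of collagen, was the 1 gene that rose and read 8.59 in the untreated array, 11.45 at day 4 and 11.46 at day 6 (2.86 ± 0.12, adjusted p = 1.74e-06). Of the 16 ATF4 list genes that fell, 1 had the untreated Max-null array above the other untreated lines, against 32.0% of all genes.

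**Figure D3:**
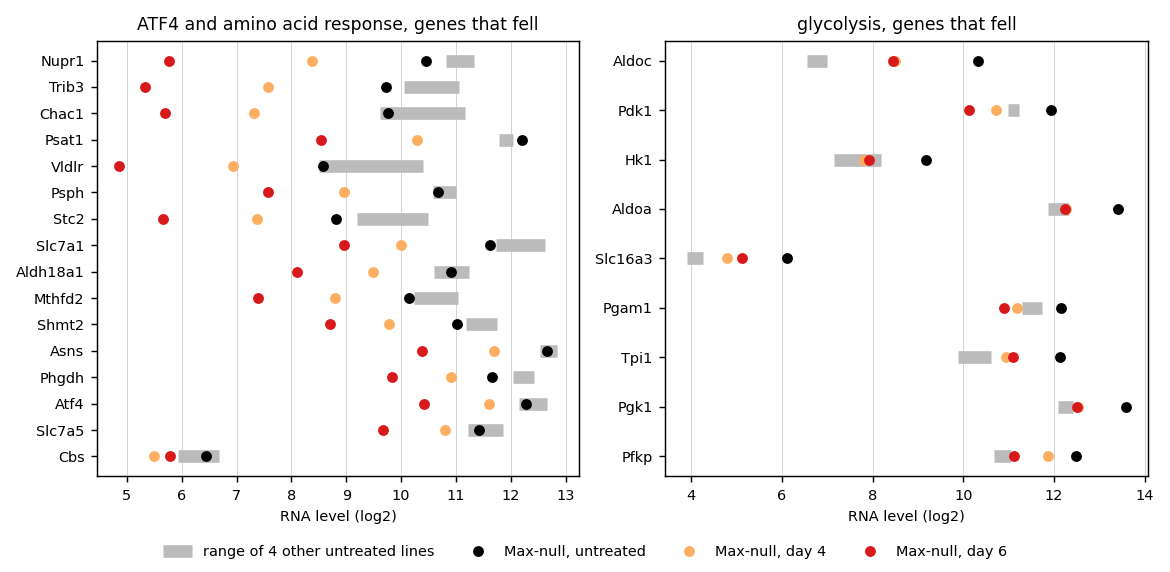
Log2 RNA level (horizontal) of the ATF4 list genes (left) and glycolysis genes (right) that fell, 1 gene per line, with 1 point each for the untreated, day 4 and day 6 arrays of the Max-null line, and grey bars for the range of the 4 other untreated lines. On the left 16 of 16 genes have both Dox points below the bar, and on the right 9 of 9 have the untreated point above it. Over all genes these shares are 31.1% and 32.0%.

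RNA of ESC markers was high in all 3 arrays. All 8 markers of ESC identity were above the level filter in each, and their summed linear level was 60230.5 untreated, 61478 at day 4 and 48130 at day 6, against 49335 to 56916 in the 13 arrays of other lines. Pou5f1 read 13.01, 13.09 and 12.63 (-0.15 ± 0.18, adjusted p = 0.517), Sox2 13.17, 13.03 and 12.57 (-0.37 ± 0.21, adjusted p = 0.186) and Nanog 12.78, 13.15 and 12.57 (0.08 ± 0.24, adjusted p = 0.809), in the order untreated, day 4 and day 6, and none was called. Among 10 core pluripotency genes, 2 rose, Trim28 and Dppa2, and 1 fell, Utf1, each by 0.49 to 0.53, where 14.3% of all genes rose and 26.1% fell. These 3 calls were lost without the wild-type c-Myc line, and those of the 2 that rose also when arrays were centred on their medians.

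Of 24 naive pluripotency genes 2 rose and 4 fell, against 14.3% and 26.1% of all genes. Dppa3, which protects maternal imprints in the early embryo and also marks germ cells, read 6.43 in the untreated array, 8.89 at day 4 and 8.77 at day 6 (2.40 ± 0.25, adjusted p = 0.000238), and Fbxo15 changed by 1.47 ± 0.18, adjusted p = 0.000527. Tcl1, a coactivator of Akt, changed by -1.37 ± 0.26, adjusted p = 0.00368, and Gbx2 by -0.83 ± 0.23, adjusted p = 0.0199. The median change was -0.11 at day 4 and -0.56 at day 6, without the day 4 array 11 of the 24 fell, and without the wild-type c-Myc line 1 did. In the formative and primed epiblast list, 4 of 19 genes rose and 4 fell. Dnmt3a, a de novo DNA methyltransferase, read 8.65 in the untreated array, 10.12 at day 4 and 10.29 at day 6 (1.56 ± 0.20, adjusted p = 0.000686), Nodal changed by 1.07 ± 0.14, adjusted p = 0.00068, Wnt8a by 1.12 ± 0.22, adjusted p = 0.00464 and Foxd3 by -1.05 ± 0.19, adjusted p = 0.00354.

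Markers of other cell types ranged from below the level filter to high levels, and some changed. Of 18 primitive and visceral endoderm genes 7 rose and 0 fell, with median changes of 0.51 and 0.85, and the summed level of the 20 on the array was 5081 untreated, 8233 at day 4 and 8698 at day 6, against 2381 to 5433 in the 13 other arrays. Sparc, a matrix protein of parietal endoderm, read 10.27 in the untreated array, 11.52 at day 4 and 11.77 at day 6 (1.37 ± 0.24, adjusted p = 0.00288). Foxa2, an endoderm factor, read 4.54 in the untreated array, 6.23 at day 4 and 7.55 at day 6 (2.35 ± 0.43, adjusted p = 0.00334). Pdgfra and Sox17 changed by 1.15 ± 0.25 (adjusted p = 0.00692) and 1.33 ± 0.31 (adjusted p = 0.0103), from levels near the filter of 4.64. Gata4, a defining endoderm factor, was not called and lay below that filter at 4.29, 4.37 and 4.38. When all probe sets of a gene were averaged, 3 of the endoderm genes rose, without the wild-type c-Myc line 4 did, and without the day 4 array 11 did.

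In the primitive streak list 5 of 10 genes rose and 0 fell, among them Foxa2 and Sox17, which the endoderm list also holds, Evx1 (0.71 ± 0.15, adjusted p = 0.00588) and Cdx2 (1.12 ± 0.25, adjusted p = 0.00818). In the trophoblast list 4 of 15 rose and 3 fell, with Gata2 at a change of 1.15 ± 0.20 (adjusted p = 0.00255) and Bmp4 at -1.12 ± 0.24 (adjusted p = 0.00676), and without the day 4 array 8 rose. The summed level of the trophoblast list was 4101 untreated, 3118 at day 4 and 4599.96 at day 6. In the neuroectoderm list 2 of 10 rose and 3 fell, with Mapt at -1.59 ± 0.25, adjusted p = 0.00162, and without the wild-type c-Myc line 1 fell. In the fibroblast and feeder list 2 of 11 rose and 2 fell, and without the wild-type c-Myc line 1 did each. The summed level of the 19 genes of that list on the array was 8726 untreated, 9269.9 at day 4 and 8590.2 at day 6, against 5643 to 8631 in the 13 other arrays. The counts of these lists stand against 14.3% of all genes that rose and 26.1% that fell. The part of cells of such types in the results was not tested.

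**Figure D4:**
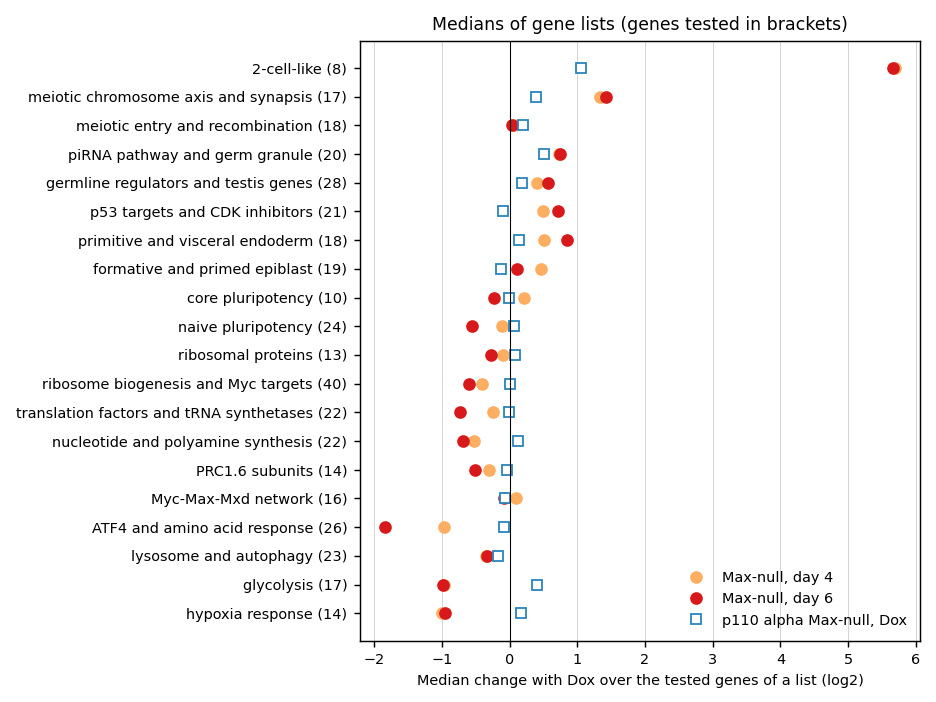
Median change with Dox (horizontal, log2) over the tested genes of 20 lists, with filled points for Max-null ESCs at day 4 and day 6 and open squares for the p110 alpha Max-null pair. The 2-cell-like list stands at 5.69 at day 4 and 5.67 at day 6, and the ATF4 list at -0.97 at day 4 and -1.83 at day 6.

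Signalling genes changed in both directions. Among PI3K pathway components, 6 of 27 rose and 9 fell, where 14.3% of all genes rose and 26.1% fell. Pik3r3, a regulatory subunit, read 5.19 in the untreated array, 9.79 at day 4 and 10.34 at day 6 (4.88 ± 0.24, adjusted p = 3.98e-06), and Pik3ca, which encodes p110 alpha, fell to 7.39 and 7.23, against 8.50 untreated (-1.19 ± 0.17, adjusted p = 0.00125). Pik3cd, another catalytic subunit, read 11.70 in the untreated array, 13.33 at day 4 and 13.90 at day 6 (1.92 ± 0.30, adjusted p = 0.00174), and Igf1r, the IGF1 receptor, changed by -1.56 ± 0.24, adjusted p = 0.00157. In the Nodal and Lefty list, 1 of 11 rose, Nodal, and 3 fell. Lefty2, an inhibitor of Nodal, read 11.04 in the untreated array, 8.08 at day 4 and 7.75 at day 6 (-3.12 ± 0.50, adjusted p = 0.00191), and the 4 other untreated lines read 6.99 to 8.62. Smad7, another inhibitor of the pathway, changed by -1.96 ± 0.15, adjusted p = 4.69e-05, and Smad3 by -0.84 ± 0.27, adjusted p = 0.0336. Without the day 4 array 5 of the 11 fell.

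In the Id and BMP list, 4 of 14 rose and 4 fell, with the same shares of all genes as background (14.3% and 26.1%). Id2, an inhibitor of helix-loop-helix factors, read 7.39 in the untreated array, 9.97 at day 4 and 10.97 at day 6 (3.08 ± 0.38, adjusted p = 0.000589). Its level in the 4 other untreated lines was 8.02 to 8.72. Bmpr1a, a BMP receptor, changed by -1.03 ± 0.20, adjusted p = 0.0043 and Msx2, a BMP target, by 0.83 ± 0.17, adjusted p = 0.00604. Of 21 p53 targets and CDK inhibitors, 8 rose and 3 fell, and with quantile normalization 14 rose. Plk2, a p53 target kinase, read 7.71 in the untreated array, 10.26 at day 4 and 10.50 at day 6 (2.67 ± 0.22, adjusted p = 7.95e-05). The 4 other untreated lines read 9.73 to 9.93 for Plk2, between the untreated Max-null array and the Dox arrays. For 4 of the 8 genes that rose, the untreated Max-null array was below those 4 lines. For 7 of the 8, both Dox arrays were above them. Over all genes these shares were 26.3% and 25.3%. Gadd45g and Btg2, both antiproliferative, changed by 2.71 ± 0.22 (adjusted p = 8.42e-05) and 2.26 ± 0.24 (adjusted p = 0.000249), and Cdkn1c, a CDK inhibitor, by 1.66 ± 0.23, adjusted p = 0.000919.

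Of 24 genes of heat shock, chaperonin and oxidative stress, 5 rose and 7 fell, against 14.3% and 26.1% of all genes. Hspa1a, the inducible Hsp70, read 5.73 in the untreated array, 10.00 at day 4 and 10.31 at day 6 (4.43 ± 0.17, adjusted p = 8.63e-07), and its near-identical copy Hspa1b changed by 3.28 ± 0.14, adjusted p = 1.68e-06, so the signals of these copies may not be separate. Hsph1, an Hsp110, changed by 1.10 ± 0.21, adjusted p = 0.00377, and Txnrd1, thioredoxin reductase, by -1.64 ± 0.20, adjusted p = 0.000615.

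The other 9 of the 12 largest falls were Fut9, Lrrc31, Mipol1, Clybl, Pdcl2, Gm13261, Sirt5, Lefty2 and Dus4l. Fut9, which makes the SSEA-1 carbohydrate epitope, read 8.11 in the untreated array, 5.06 at day 4 and 3.84 at day 6 (-3.66 ± 0.41, adjusted p = 0.000353). Sirt5, a mitochondrial desuccinylase, read 7.86 in the untreated array, 4.71 at day 4 and 4.44 at day 6 (-3.28 ± 0.15, adjusted p = 2.83e-06). Both Dox arrays were below all 4 other untreated lines for Fut9 (6.02 to 7.88) and Sirt5 (6.45 to 7.75). Pdcl2 read 7.16 in the untreated array, 3.87 at day 4 and 3.87 at day 6 (-3.29 ± 0.28, adjusted p = 9.61e-05), and the other untreated lines 3.21 to 5.17, so there only the untreated Max-null array stood apart. Clybl, a mitochondrial lyase, changed by -3.37 ± 0.32, adjusted p = 0.00016 and Dus4l, named for tRNA dihydrouridine synthases, by -3.12 ± 0.34, adjusted p = 0.000313.

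The p110 alpha Max-null line, with its own untreated array, gave smaller changes. At least 2-fold, 199 genes were higher with Dox (1.43%) and 59 lower (0.424%), and 30 passed the test. Of the 578 genes that rose 2-fold in Max-null ESCs, 50 were 2-fold higher here, 8.65% of the 578 and 25.1% of the 199. Of the 50 largest rises in Max-null ESCs, 50 had a change above 0 and 21 one of at least 1 in the p110 alpha line, with a median of 5.28 in Max-null and 0.89 in p110 alpha Max-null ESCs. Of all 578, 384 had a change above 0 in the p110 alpha line (66.4%), against 59.8% of all genes. Of the 992 that fell 2-fold, 26.8% had a change below 0 in the p110 alpha line, against 40.1% of all genes, and their median change there was 0.23.

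The difference between the changes of the 2 lines passed for 3293 genes (23.7%), 872 more positive in Max-null ESCs (6.27%) and 2421 more negative (17.4%). Among these were 460 of the 578 and 861 of the 992. With the 5 arrays of the Max-null lines alone, 210 genes passed, 116 of the 578 and 87 of the 992 among them. The 578 and the 992 were chosen by their change in Max-null ESCs, which is a part of the difference. Their counts here are therefore no independent result. The same holds for the differences of genes named for their small p in Max-null ESCs. The Dox duration of the p110 alpha line is not given, so duration and line cannot be told apart. The actin 3′ over 5′ signal of that line was 1.02 with Dox and 0.96 without.

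The 2-cell-like list had a median change of 1.06 in the p110 alpha line. All 8 genes had a change above 0 there, 1 of them, Zfp352, passed the test, and 7 of 8 differed from Max-null ESCs. Zfp352 read 8.31 with Dox and 6.50 without in p110 alpha Max-null ESCs, a difference in change of 4.44 ± 0.32, adjusted p = 0.000206. Arg2 read 7.78 with Dox and 6.42 without in p110 alpha Max-null ESCs, a difference of 4.03 ± 0.28, adjusted p = 0.000206. For both genes the change was smaller in the p110 alpha line. Over all genes, 59.8% had a change above 0 in that line, and 23.7% differed between the lines.

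Of the 83 germ cell genes, 17 were at least 2-fold higher in the p110 alpha line, against 1.43% of all genes. The median change of the 83 was 0.31 there. Dazl read 9.49 with Dox and 7.35 without in p110 alpha Max-null ESCs, a difference of 1.12 ± 0.26, adjusted p = 0.016. Slc25a31 read 7.12 with Dox and 5.01 without in p110 alpha Max-null ESCs, a difference of 1.15 ± 0.28, adjusted p = 0.0189. Syce1 read 8.94 with Dox and 7.74 without in p110 alpha Max-null ESCs, and its difference from Max-null ESCs did not pass (0.68 ± 0.23, adjusted p = 0.062), nor did that of Syce3 (0.68 ± 0.25, adjusted p = 0.0769). Stra8, in contrast, read 8.78 with Dox and 9.31 without in p110 alpha Max-null ESCs, a difference of 3.68 ± 0.36, adjusted p = 0.000665, and Mei1 4.44 with Dox and 4.51 without in p110 alpha Max-null ESCs, a difference of 3.05 ± 0.25, adjusted p = 0.000292. Dazl and Slc25a31 were thus over 4-fold higher with Dox in this line, while Stra8 and Mei1 were no higher.

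The ATF4 list had a median change of -0.08 in the p110 alpha line. Of its 26 genes 3 differed between the lines, a smaller share than the 23.7% of all genes. Psat1 read 12.19 with Dox and 12.04 without in p110 alpha Max-null ESCs, a difference of -2.94 ± 0.85, adjusted p = 0.0365, and Chac1 11.08 with Dox and 11.16 without in p110 alpha Max-null ESCs, a difference of -3.19 ± 0.97, adjusted p = 0.0443. Trib3 read 11.18 with Dox and 11.05 without in p110 alpha Max-null ESCs, a difference that did not pass (-3.40 ± 1.18, adjusted p = 0.0673). Glycolysis had a median change of 0.40, with 7 of 17 genes more negative in Max-null ESCs, and Aldoc read 7.23 with Dox and 6.56 without in p110 alpha Max-null ESCs, a difference of -2.52 ± 0.30, adjusted p = 0.00141. In ribosome biogenesis the median change was 0.00, and 13 of 40 genes were more negative and 2 more positive in Max-null ESCs. Over all genes, 17.4% were more negative and 6.27% more positive.

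**Figure D5:**
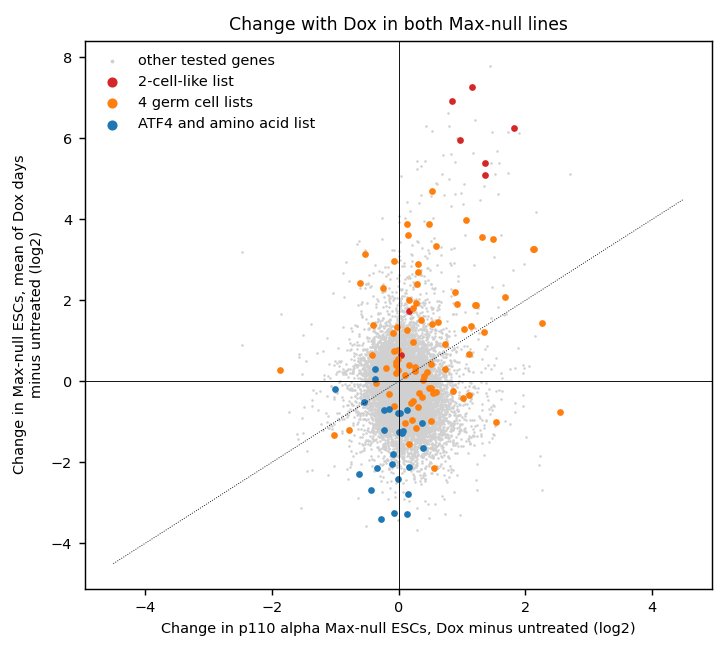
Change with Dox of each tested gene in Max-null ESCs (vertical, mean of both days, log2) against p110 alpha Max-null ESCs (horizontal, log2), with the dotted line marking equal change. The 2-cell-like genes lie above the line, and 6 of the 8 have changes of 5.10 to 7.26 in Max-null ESCs.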

How the data were processed

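The authors deposited 1 table of log2 values, made with affy and RMA, per the submitters' processing notes, from biotin-labelled total RNA on Affymetrix arrays. Of 45101 probe sets, 64 controls were left out and 34945 named 1 gene. A gene took its probe set with the highest mean over 18 arrays, which gave 18193 genes. Genes above the 40th percentile (4.64) on at least 2 of 14 arrays were tested with limma 3.58.1 in R 4.3.3, with line as a block, 1 LY294002 coefficient per day and 1 Dox coefficient per Max-null line, and Benjamini-Hochberg adjustment. The labels do not state separate cultures. The p-values measure a spread between the 2 Dox days and between lines in their LY294002 response, not one between replicates of a condition. The 4 arrays with medians of 5.03 to 5.05, against 5.31 to 5.52 in the others, were left out of the fit. The members and lists were chosen with earlier results of these data known. Named are the 12 largest rises and falls, the 4 smallest p per list, all PRC1.6 and Myc network genes, and the 5 smallest p per direction of the difference between lines. Promoters of chromosome 18 were not used. Other filters, scalings, probe set rules, priors, thresholds and sets of arrays were tried. The script was tested on simulated data.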

Additional observations from a re-analysis of the deposited data

Results flagged for a closer look

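The change with Dox differed between Max-null and p110 alpha Max-null ESCs for 3293 genes by the interaction term of limma. The p110 alpha line had 1 array with Dox, for a number of days not given, and 1 without. Among the 5 genes with the smallest p in the positive direction, Tcstv1 had a change of 6.92 in Max-null and 0.84 in p110 alpha Max-null ESCs, a difference of 6.08 (adjusted p = 7.78e-06). Gm7969 had a change of 6.63 in Max-null and 0.78 in p110 alpha Max-null ESCs, a difference of 5.86 (adjusted p = 1.25e-05), and BC147527 had a change of 6.17 in Max-null and 0.53 in p110 alpha Max-null ESCs, a difference of 5.65 (adjusted p = 3.19e-05). Ccl3, a chemokine, had a change of 5.58 in Max-null and 0.70 in p110 alpha Max-null ESCs, a difference of 4.88 (adjusted p = 4.06e-05). Lmx1a, a LIM homeobox factor, had a change of 5.44 in Max-null and 0.42 in p110 alpha Max-null ESCs, a difference of 5.02 (adjusted p = 4.06e-05).

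In the negative direction, Sirt5 had a change of -3.28 in Max-null and 0.73 in p110 alpha Max-null ESCs, a difference of -4.01 (adjusted p = 8.79e-05). Cadm4, a cell adhesion molecule, had a change of -1.56 in Max-null and 1.13 in p110 alpha Max-null ESCs, a difference of -2.69 (adjusted p = 0.000292), and Mgarp, a mitochondrial protein, had a change of -2.91 in Max-null and 0.72 in p110 alpha Max-null ESCs, a difference of -3.63 (adjusted p = 0.000292). Tgm2, a transglutaminase, had a change of -2.07 in Max-null and 2.21 in p110 alpha Max-null ESCs, a difference of -4.29 (adjusted p = 0.000292). Smad7 had a change of -1.96 in Max-null and 0.73 in p110 alpha Max-null ESCs, a difference of -2.69 (adjusted p = 0.000314).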

How the results depend on the processing

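With the 5 arrays of the Max-null lines and 1 residual degree of freedom, 1258 genes were called for the Dox change and 210 for the difference between lines (118 more positive, 92 more negative). Without the wild-type c-Myc line these counts were 3548 and 1245, and without the T58A c-Myc line the difference passed for 1853. On those 5 arrays of the Max-null lines, with 1 Dox coefficient common to both lines, limma called 0 genes, with 708 at an unadjusted p under 0.05 and a smallest adjusted p of 0.595, on 2 residual degrees of freedom. The 24 largest changes kept their sign there. They were chosen by their change in Max-null ESCs, whose arrays are part of that fit, so this is no independent result. Leaving out either Dox array gave 5158 to 7790 genes for the Dox change and 4069 to 6003 for the difference, and the cause was not tested. Of 1584 genes at least 2-fold on both days, called or not, a fold of 1.5 gave 3877 and a fold of 4 gave 266. Quantile normalization gave 2349 higher and 2750 lower for the Dox change, 1039 and 1728 for the difference, and 711 and 758 at 2-fold. Centring arrays put the median change of all genes at day 6 at -0.27. With all probe sets averaged, Sox11 read -0.29, Eif1ad -0.033 and Lss -0.13, each with the sign turned, as Cyct did at 0.089 with the common coefficient. No paired analysis was possible because the Max-null conditions have 1 array each. With 1 untreated array, a deviation of that array cannot be told apart from a change with Dox.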

Other observations

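The counts here stand against 14.3% of all genes that rose and 26.1% that fell, and several lists are near those shares. Among 24 imprinted genes 7 rose and 3 fell. Magel2 read 5.02 in the untreated array, 7.70 at day 4 and 7.35 at day 6 (2.50 ± 0.35, adjusted p = 0.000979). Phlda2, which restrains placental growth, read 11.18 in the untreated array, 9.19 at day 4 and 9.16 at day 6 (adjusted p = 0.00068), and Grb10, an inhibitor of insulin receptor signalling, changed by -2.10 ± 0.38, adjusted p = 0.00309. Without the wild-type c-Myc line 4 rose. Of 29 basement membrane and adhesion genes 6 rose and 3 fell, and without the day 4 array 10 rose and 7 fell. The tight junction genes Cldn7 and Cldn4 changed by -2.31 ± 0.24 (adjusted p = 0.000242) and -1.26 ± 0.19 (adjusted p = 0.00155). Snai1 and Snai2, repressors of epithelial genes, changed by 2.35 ± 0.32 (adjusted p = 0.000845) and 1.67 ± 0.28 (adjusted p = 0.00237). Snai1 read 5.01 in the untreated array, 6.92 at day 4 and 7.79 at day 6.

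Of 23 lysosome and autophagy genes 7 fell and 1 rose, close to the 26.1% of all genes that fell, with Hexa, a lysosomal hexosaminidase, at -1.28 ± 0.22, adjusted p = 0.00276, and Lamp2 at -1.36 ± 0.26, adjusted p = 0.00375. Of 19 FOXO targets 9 fell and 4 rose, with Cat, catalase, at -1.65 ± 0.26, adjusted p = 0.00162, and Foxo4 at 1.12 ± 0.20, adjusted p = 0.00316. Without the day 6 array 5 of them fell, as without either c-Myc line. Among 26 DNA replication genes 4 rose and 5 fell, and 10 fell without the day 4 array. Ccne2, cyclin E2, changed by 1.83 ± 0.27, adjusted p = 0.00142 and Mcm10 by -1.01 ± 0.17, adjusted p = 0.00202. Of 19 mitosis genes 2 fell, Aurkb (-1.80 ± 0.29, adjusted p = 0.00189) and Ttk (-0.54 ± 0.16, adjusted p = 0.0293), and 0 rose, with 1 higher at an unadjusted p under 0.05 in limma. With quantile normalization 5 rose and 1 fell, and without the day 4 array 8 fell. Of 19 genes of the Bcl2 family and apoptosis 5 fell, about the share of all genes, and 0 rose, Bcl2l2 with the smallest p (-1.38 ± 0.23, adjusted p = 0.00241), with 2 higher at an unadjusted p under 0.05. Without the day 4 array 10 fell and 3 rose.

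In oxidative phosphorylation and the TCA cycle 3 of 25 genes rose and 4 fell, with Idh2 at -1.75 ± 0.32, adjusted p = 0.00361, and 9 fell without the day 4 array. In cholesterol and fatty acid synthesis 3 of 22 rose and 4 fell, with Fdps at -0.99 ± 0.19, adjusted p = 0.00368, and without the wild-type c-Myc line 0 rose and 3 fell. Of 17 ERK feedback and immediate-early genes 2 rose and 4 fell, with Dusp6 at -1.07 ± 0.25, adjusted p = 0.0096, and without the day 6 array 0 rose and 5 fell. Of 10 Wnt targets and Tcf/Lef genes 1 rose, Axin2 (1.08 ± 0.16, adjusted p = 0.00125), and 2 fell, with Ccnd1 at -1.54 ± 0.27, adjusted p = 0.00285, and without the day 4 array 3 did each. Of 9 genes of the LIF receptor and Stat3 list Jak1 rose (0.71 ± 0.17, adjusted p = 0.0115) and 0 fell, with 1 lower at an unadjusted p under 0.05. Of 10 genes of DNA methyltransferases and Tet 1 rose, Dnmt3a, and 3 fell, with Uhrf1 at -0.66 ± 0.14, adjusted p = 0.00684, and 5 fell without the day 4 array. Of 10 interferon response genes 2 rose and 1 fell, Bst2 (-1.68 ± 0.22, adjusted p = 0.000802), and without the day 6 array 0 rose.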
